A study of Mus musculus with 6 samples.

Results

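Interferon-stimulated genes were examined in macrophages sorted from mouse tumours. The set leaves out the IFIT, OAS, GBP, IRG, PYHIN and Schlafen families and the IRF and RIG-I-like genes. The set was given as a list of 43 gene symbols, and its members were the rows of the deposited count table with those symbols. A row was found for 42 of the 43, out of 21760 symbols in the table; Rnf213 was not analysed here. The members were not chosen by a threshold on their values, but the list was drawn up with earlier results of these data known.

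The tumours were MC38, a mouse colon carcinoma line, grown under the skin of C57BL6 mice for 16 days. They carried either wild-type (WT) Xkr8 or a knockout (KO) of Xkr8, the scramblase that caspases switch on to move phosphatidylserine to the surface of dying cells. The knockout was in the tumour cells and the macrophages came from the host, and no further treatment was given. There were 2 mice with WT tumours, 2 with KO clone 1 and 2 with KO clone 2, and 1 library per mouse; each KO line is 1 clone, with sex, age and gating not given in the sources used here.

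Type I interferons bind the IFNAR receptor, whose kinases JAK1 and TYK2 switch on ISGF3. This complex of transcription factors, IRF9 among them, binds interferon-stimulated response elements (ISREs) in the promoters of target genes, while interferon-gamma has its own receptor and acts mainly at a different site. The products of interferon-stimulated genes block viral entry, destroy or modify nucleic acids, attach ISG15 or ADP-ribose to proteins, or feed back on the signal, and macrophages express many of them at rest.

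Promoter sequences are shown because the ISRE is the element that ISGF3 binds. The RefSeq promoter table (GRCm38.p6, 250 bases before to 50 bases after each gene start) matched 34 of the 43 listed members, with 42 promoters. The core of an ISRE, the letters GAAA and again GAAA with any 2 bases between them, was searched on both strands and found in 12 of the 34 members (35.3%), against 3.99% of 27025 genes and 3.44% of 32851 promoters. A match is only a description of these letters. Bases -150 to -1 before the start are shown for 5 members, 5′ to 3′ on the gene's own strand. Isg15 (chr4:156200819-156200968, minus strand) and Bst2 (chr8:71537473-71537622, minus) hold matches that overlap each other, and their KO libraries lay between the 2 WT libraries. In Ddx60 (chr8:61927937-61928086, plus), Trim30a (chr7:104465194-104465343, minus) and Trim30d (chr7:104507850-104507999, minus) all 4 KO libraries lay above both WT libraries. Capitals mark the ISRE core matches.
Isg15: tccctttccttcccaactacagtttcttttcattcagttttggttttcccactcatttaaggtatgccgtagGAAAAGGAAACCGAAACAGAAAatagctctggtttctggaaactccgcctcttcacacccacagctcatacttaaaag
Bst2: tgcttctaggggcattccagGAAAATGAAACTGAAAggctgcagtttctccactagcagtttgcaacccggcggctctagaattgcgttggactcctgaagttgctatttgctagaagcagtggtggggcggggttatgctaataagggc
Ddx60: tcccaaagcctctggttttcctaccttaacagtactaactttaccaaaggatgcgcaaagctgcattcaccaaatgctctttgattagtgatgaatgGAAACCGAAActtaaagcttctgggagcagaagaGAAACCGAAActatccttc
Trim30a: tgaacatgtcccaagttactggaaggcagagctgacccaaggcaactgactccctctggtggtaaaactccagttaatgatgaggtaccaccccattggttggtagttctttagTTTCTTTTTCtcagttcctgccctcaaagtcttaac
Trim30d: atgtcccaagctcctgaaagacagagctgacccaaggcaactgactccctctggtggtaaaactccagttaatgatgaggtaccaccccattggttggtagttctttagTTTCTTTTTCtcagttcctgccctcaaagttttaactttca

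Counted from the start site, the matches begin at -78, -72 and -66 in Isg15, at -130 and -124 in Bst2 and at -53 and -19 in Ddx60. Those of Trim30a (-36) and Trim30d (-41) lie on the opposite strand, so the capitals show the reverse complement. The Trim30a and Trim30d stretches, shifted by 5 bases, were identical at 140 of 145 positions (96.6%).

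Levels are counts scaled to library size (CPM) with TMM factors, which allow a gene to be compared between libraries but not with another gene, since they are not per length. The 6 libraries held 20038047 to 40022755 counts. WT mouse 2 stood apart, with the lowest total, 16810 symbols with counts against 18193 to 19250 elsewhere, and 24.6% of its counts on the ribosomal precursor Rn45s against 1.46% to 7.12%. Macrophage markers (12 of 12 in the table) summed to 10870 to 13690 CPM in the WT pair against 11590 to 13450 CPM in the KO libraries. For 3 of the 12 (Adgre1, Fcgr1 and Lyz2) all 4 KO libraries lay above both WT libraries, and for 0 all 4 lay below. Over all genes tested, all 4 KO libraries lay above both WT libraries in 13.1% and below both in 10.4%. Markers of some other cells stood higher in the KO libraries. The 19 T and NK cell markers summed to 30.1 and 48.8 CPM in the WT pair against 130.3 to 239.7 CPM in the KO libraries. For 17 of the 19, all 4 KO libraries lay above both WT libraries. The 8 monocyte markers summed to 319 and 734 CPM in the WT pair against 975 to 1256 CPM in the KO libraries (6 of 8), and 9 markers of conventional dendritic cells to 20.8 and 29.0 CPM against 35.4 to 57.6 CPM (7 of 9). The 9 fibroblast markers, chiefly the collagen Col3a1, summed to 4166 CPM in WT mouse 1, 11620 CPM in WT mouse 2 and 2414 to 3965 CPM in KO libraries. Of these 9, all 4 KO libraries lay above both WT libraries in 2 (Dcn and Thy1) and below both in 2 (Col3a1 and Fap). Neutrophil markers summed to 37.8 and 40.8 CPM in WT libraries against 56.9 to 75.5 CPM (5 of 10), mostly Csf3r, with S100a8 at 0.04 to 0.34 CPM. Another of them, Cxcr2, was lower in all 4 KO libraries than in both WT libraries. B cell markers summed to 3.80 and 5.94 CPM against 8.49 to 13.7 CPM (1 of 5), and endothelial markers to 21.7 and 25.3 CPM against 46.8 to 60.3 CPM (2 of 6). Epithelial or tumour cell markers, mostly Cdh1, were lower, at 15.8 and 42.8 CPM in WT against 11.2 to 12.97 CPM in KO. Those of plasmacytoid dendritic cells stood at 82.0 and 88.0 CPM against 83.9 to 111 CPM (0 of 7), with Siglech at 0.58 to 0.97 CPM. The part of these cells in the results that follow was not tested, and in bulk samples fewer cells of a type and less RNA per cell cannot be told apart.

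Most members stood higher in macrophages from KO tumours. The log2 fold change of KO over WT was above 0 for 36 of 42 members, against 50.2% of all genes tested, and its median was 0.73, against 0.00 over 15560 genes. In 27 members (64.3%) all 4 KO libraries lay above both WT libraries, against 13.1% of genes, and in none did all 4 lie below, against 10.4%. The KO mean was over 2 times the WT mean in 13 members (31.0%), against 5.72%. No member passed an adjusted p of 0.05 in edgeR's quasi-likelihood test, in which 0.129% of genes were higher and 0.00643% lower, and the smallest adjusted p was 0.055, for Ifi44. At an unadjusted p under 0.05, 25 members were higher and 0 lower, against 6.25% and 7.38% of genes. DESeq2 called 18 members higher and 0 lower, against 2.31% and 0.893% of genes, among them Ifi44 (DESeq2 adjusted p = 1.34e-09), Rtp4 (7.12e-07) and Xaf1 (3.78e-06). limma-voom called 0 members and 16 of all genes. At an unadjusted p under 0.05 it had 26 members higher, with the share over all genes not taken. The labels give separate mice, and p-values measure the spread between these 6.

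**Figure D1:**
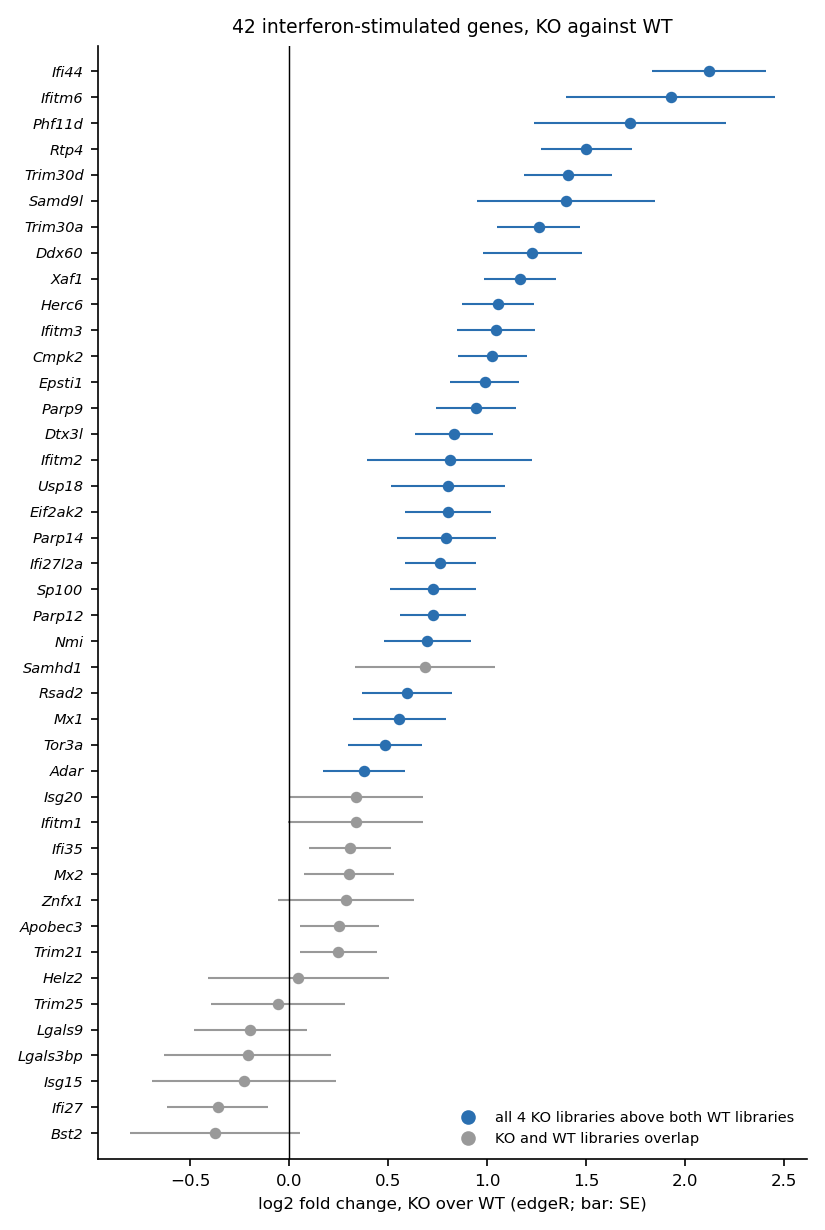
Log2 fold change of KO over WT for each of 42 members, with the standard error from edgeR as bars. The values run from -0.37 (Bst2) to 2.12 (Ifi44), and blue points mark the 27 members whose 4 KO libraries all lie above both WT libraries.

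Summed over the members, the level was 4011 and 5507 CPM in WT mice 1 and 2, 8232 and 6521 CPM in clone 1 and 7552 and 6815 CPM in clone 2. All KO libraries lay above both WT libraries. The 6 libraries had the same order for this sum as for the sum of T and NK cell markers, over 6 points that share their libraries. Conventional dendritic cell markers had this order too, except that clone 2 mouse 1 (57.6 CPM) stood above clone 1 mouse 1 (52.1 CPM). A link between these sums was not tested. Gene by gene, WT mouse 1 was the lowest library for 21 members and WT mouse 2 for 20. The highest library was clone 2 mouse 1 for 17 members and clone 1 mouse 1 for 16; WT mouse 2 was the highest for 6. Below, a member is said to separate the genotypes where all 4 KO libraries lay above both WT libraries, and the values of a member are given for mouse 1 and then mouse 2 of each group.

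The less characterised members held the largest difference. Ifi44, a cytoplasmic protein induced by type I interferon (chr3:151730922-151749960, minus strand, GRCm38 from GENCODE M21), stood at 23.4 and 18.1 CPM in WT, 108 and 62.5 CPM in clone 1 and 109 and 86.5 CPM in clone 2. The lowest KO library was far above both WT libraries, and mouse 2 was the lower of each clone. The KO mean of 91.6 ± 22.1 CPM (SD, n = 4) was 4.42 times the WT mean of 20.8 ± 3.79 CPM (SD, n = 2). The log2 fold change was 2.12 ± 0.29 (SE; edgeR adjusted p = 0.055). Rtp4, a chaperone that brings receptors to the cell surface (chr16:23520291-23614222, plus strand), stood at 49.9 and 30.1 CPM in WT, 118 and 109.7 CPM in clone 1 and 125 and 106 CPM in clone 2. The KO libraries lay within a narrow band above the WT libraries, with a log2 fold change of 1.50 ± 0.23 (edgeR adjusted p = 0.0638).

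Epsti1, an interferon-induced protein first described in epithelial-stromal interaction, stood at 76.4 and 67.2 CPM in WT, 144 and 126 CPM in clone 1 and 164 and 144 CPM in clone 2 (log2 fold change 0.99 ± 0.18). Ifi27l2a, a small mitochondrial protein also called ISG12, stood at 91.1 and 76.9 CPM in WT, 164 and 149 CPM in clone 1 and 141 and 125 CPM in clone 2 (0.76 ± 0.18). Both separated the genotypes. Its neighbour Ifi27, 1928 bp away on chromosome 12, did not: it stood at 35.4 and 63.0 CPM in WT, 33.5 and 40.2 CPM in clone 1 and 40.3 and 42.6 CPM in clone 2. WT mouse 2 was the highest library for Ifi27 and the log2 fold change was -0.36 ± 0.25. Tor3a, a torsin ATPase of the endoplasmic reticulum, separated the genotypes at 86.3 to 112 CPM in the WT pair against 129 to 153 CPM in the KO libraries. In all, 5 of these 6 members had an unadjusted p under 0.05 with all KO libraries above both WT libraries.

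All 3 members of the TRIM ubiquitin ligase group had a positive fold change. Trim25, also a TRIM ligase, was placed in the ISG15 system below and did not (-0.06 ± 0.34). The pair from 1 cluster on chromosome 7 separated the genotypes. Trim30a, reported to restrain NF-kB signalling, stood at 175 and 126 CPM in WT, 387 and 313 CPM in clone 1 and 405 and 359.7 CPM in clone 2 (log2 fold change 1.26 ± 0.21, edgeR adjusted p = 0.0753). Trim30d, 4821 bp from it, stood at 48.3 and 31.8 CPM in WT, 113 and 90.5 CPM in clone 1 and 120.3 and 108 CPM in clone 2 (1.41 ± 0.22, adjusted p = 0.0665). In both genes every KO library was well above both WT libraries. These near-copies could share reads, so each is uncertain alone; the sum over the 3 Trim30 genes in the table was 226 and 159.7 CPM in the WT pair against 408 to 530 CPM in the KO libraries. Trim21, a cytosolic antibody receptor and ubiquitin ligase, stood at 38.1 and 51.8 CPM in WT, 52.8 and 49.9 CPM in clone 1 and 60.4 and 54.2 CPM in clone 2. Its groups overlapped (0.25 ± 0.19).

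Among nuclear and signalling adaptors, 4 of 5 members separated the genotypes. Xaf1, a partner of the apoptosis inhibitor XIAP (chr11:72301629-72313733, plus strand), stood at 43.7 and 32.1 CPM in WT, 87.4 and 80.3 CPM in clone 1 and 91.7 and 86.2 CPM in clone 2. The KO mean was 86.4 ± 4.70 CPM (SD, n = 4) against 37.9 ± 8.24 CPM (SD, n = 2), with a log2 fold change of 1.17 ± 0.18 and an edgeR adjusted p of 0.0638. Phf11d, a protein with a PHD zinc finger, stood at 60.04 and 14.9 CPM in WT, 132 and 110.3 CPM in clone 1 and 139 and 117 CPM in clone 2. The WT libraries differed from each other by more than the KO libraries did, and the log2 fold change was 1.72 ± 0.48. Phf11d has near-copies, and Phf11a to Phf11d together stood at 135 and 46.6 CPM in the WT pair against 248 to 306 CPM in the KO libraries.

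Sp100, a component of nuclear PML bodies, stood at 79.6 and 99.5 CPM in WT, 188 and 129 CPM in clone 1 and 144 and 142 CPM in clone 2 (log2 fold change 0.73 ± 0.22). Nmi, an interferon-induced signalling adaptor, stood at 45.3 and 36.2 CPM in WT, 50.9 and 65.8 CPM in clone 1 and 77.7 and 74.2 CPM in clone 2 (0.70 ± 0.22). Both separated the genotypes. Ifi35, the binding partner of Nmi, did not, at 49.1 to 72.8 CPM in the WT pair against 70.8 to 84.1 CPM in the KO libraries (0.31 ± 0.21).

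In the ISG15 system 2 of 4 members, Herc6 and Usp18, separated the genotypes. Herc6, the ligase that joins ISG15 to proteins in mice, stood at 63.0 and 71.4 CPM in WT, 152 and 123 CPM in clone 1 and 156 and 136 CPM in clone 2. Usp18, which removes ISG15 and dampens signalling at IFNAR2, stood at 49.98 and 89.2 CPM in WT, 155 and 117 CPM in clone 1 and 120.1 and 103 CPM in clone 2. All KO libraries exceeded both WT libraries in these 2 genes, with log2 fold changes of 1.05 ± 0.18 (edgeR adjusted p = 0.0881) and 0.80 ± 0.29 (adjusted p = 0.329). Isg15, the ubiquitin-like modifier whose promoter is shown above, stood at 25.4 and 96.1 CPM in WT, 66.8 and 53.5 CPM in clone 1 and 47.7 and 44.4 CPM in clone 2. The KO libraries lay between the WT libraries, which differed 3.79-fold, and the log2 fold change was -0.23 ± 0.47. Trim25, a ligase that acts on the RNA sensor RIG-I, stood at 77.4 and 168 CPM in WT, 162 and 105 CPM in clone 1 and 107 and 108 CPM in clone 2, again between the WT libraries (-0.06 ± 0.34).

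**Figure D2:**
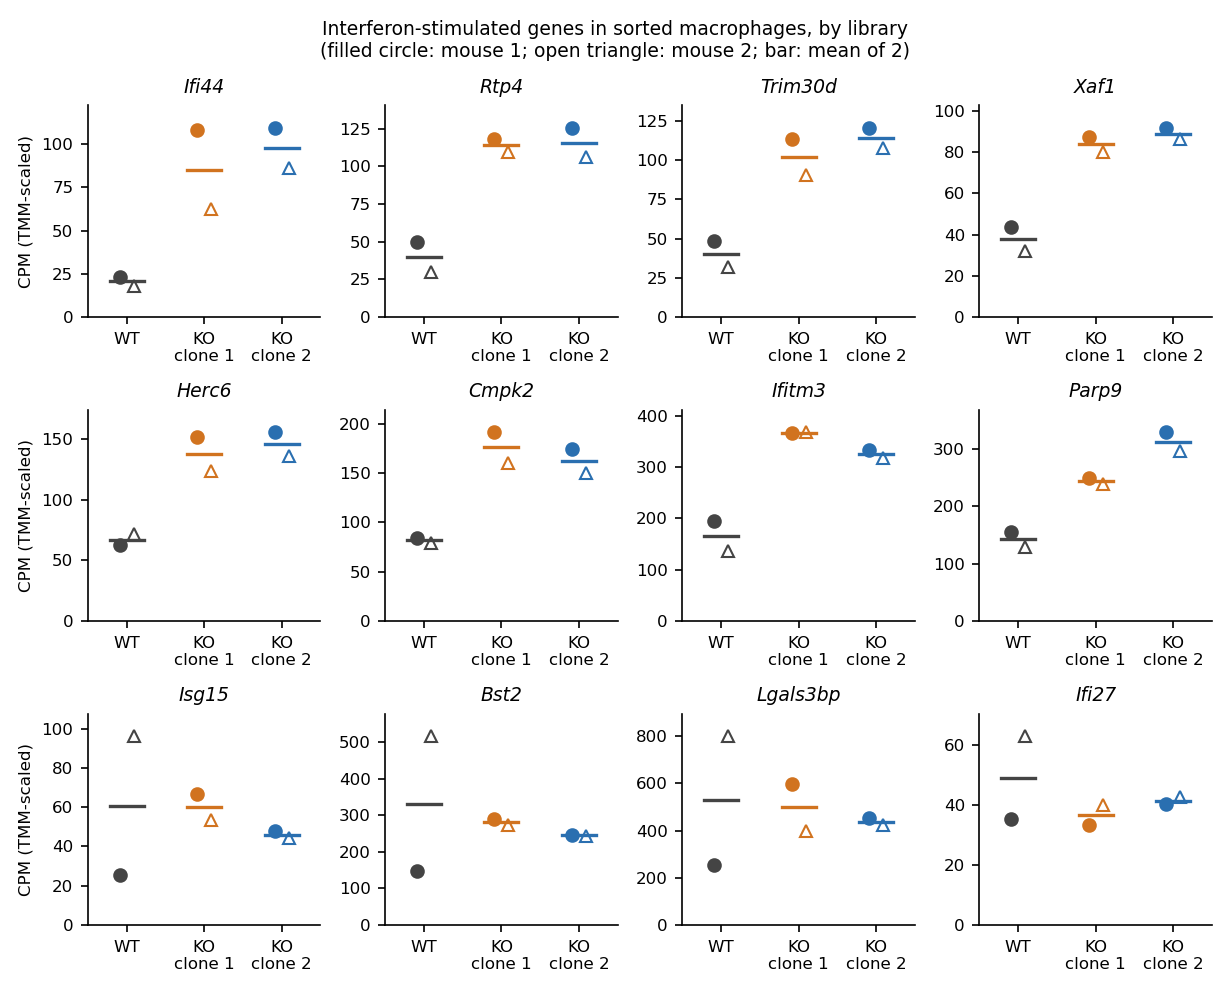
CPM in each library for 12 members (filled circles are mouse 1, open triangles mouse 2, bars the mean of 2), each panel with its own axis from 0. In the upper 8 panels every KO library lies above both WT libraries, and in the lower 4 (Isg15, Bst2, Lgals3bp and Ifi27) WT mouse 2 is the highest library.

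All 7 enzymes that act on nucleotides or nucleic acids had a positive fold change, and 4 separated the genotypes. Cmpk2, a mitochondrial nucleotide kinase, stood at 84.0 and 79.4 CPM in WT, 191 and 161 CPM in clone 1 and 174 and 149.8 CPM in clone 2 (log2 fold change 1.03 ± 0.18, edgeR adjusted p = 0.0863). Rsad2 (viperin), which makes a chain-terminating nucleotide, lies 12752 bp from Cmpk2 on chromosome 12 and stood at 242 and 292 CPM in WT, 517 and 383 CPM in clone 1 and 406 and 339 CPM in clone 2 (0.60 ± 0.23). Eif2ak2 (PKR), a kinase that halts translation on double-stranded RNA, stood at 109 and 69.8 CPM in WT, 156 and 137 CPM in clone 1 and 177 and 160.2 CPM in clone 2 (0.80 ± 0.22). These 3 had an unadjusted p under 0.05 and no overlap. Adar, which edits adenosine to inosine in double-stranded RNA, stood at 103 and 142 CPM in WT, 188 and 146 CPM in clone 1 and 159.6 and 153 CPM in clone 2. It did not overlap either, but the lowest KO library was close to WT mouse 2 (0.38 ± 0.21, unadjusted p = 0.11).

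The other 3 enzymes overlapped. Apobec3, a cytidine deaminase, stood at 71.2 and 84.4 CPM in WT, 90.4 and 76.9 CPM in clone 1 and 109.8 and 100.4 CPM in clone 2 (log2 fold change 0.25 ± 0.20). Samhd1, which hydrolyses deoxynucleotides, ran from 131 to 292 CPM in the WT pair against 270.0 to 432 CPM in the KO libraries (0.68 ± 0.35). Isg20, an exonuclease, ran from 6.29 to 13.2 CPM in the WT pair against 10.1 to 15.5 CPM in the KO libraries (0.34 ± 0.34).

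The 4 members of the ADP-ribosylation group all separated the genotypes with an unadjusted p under 0.05. Parp9 and its partner ligase Dtx3l are adjacent on chromosome 16 and their annotated spans overlap, with strand use in counting not given in the sources used here, so reads in the overlap could count for either. Parp9 stood at 155 and 130.0 CPM in WT, 249 and 239 CPM in clone 1 and 329.6 and 296 CPM in clone 2 (log2 fold change 0.94 ± 0.20, edgeR adjusted p = 0.15). Dtx3l stood at 161 and 174 CPM in WT, 344 and 250.1 CPM in clone 1 and 325 and 292 CPM in clone 2 (0.83 ± 0.20). Parp12, a mono-ADP-ribosyltransferase, stood at 158 and 129.6 CPM in WT, 235 and 238 CPM in clone 1 and 258 and 234 CPM in clone 2 (0.73 ± 0.17), with the 4 KO libraries close together. Parp14, another enzyme of that kind 54967 bp from Dtx3l, ran from 189.8 to 295 CPM in the WT pair against 355 to 472 CPM in the KO libraries (0.79 ± 0.25).

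Among membrane proteins that block virus entry or release, 3 of 5 separated the genotypes. Ifitm3, which acts at endosomes, stood at 195 and 137 CPM in WT, 366 and 368 CPM in clone 1 and 334 and 318 CPM in clone 2 (log2 fold change 1.04 ± 0.20, edgeR adjusted p = 0.107). Ifitm2 stood at 168 and 48.2 CPM in WT, 181 and 191 CPM in clone 1 and 195 and 198 CPM in clone 2 (0.81 ± 0.42). Its 4 KO libraries were nearly level and sat just above WT mouse 1 but far above WT mouse 2. Ifitm6 was low throughout, at 1.75 and 0.53 CPM in WT, 6.22 and 5.42 CPM in clone 1 and 4.12 and 2.81 CPM in clone 2 (1.93 ± 0.53). Ifitm1 overlapped at 9.07 to 19.9 CPM in the WT pair against 14.8 to 24.5 CPM in the KO libraries (0.34 ± 0.34). These 4 genes lie in 1 cluster on chromosome 7 and may share reads; Ifitm2 and Ifitm3 together stood at 363 and 185 CPM in the WT pair against 516 to 559 CPM in the KO libraries. Bst2 (tetherin), which holds budding virus at the cell surface and whose promoter is shown above, stood at 147 and 516 CPM in WT, 289.5 and 272 CPM in clone 1 and 247 and 242 CPM in clone 2. The KO libraries lay between the WT libraries, with the lowest fold change of the set (-0.37 ± 0.43).

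Working forms of the dynamin-like GTPases trap viral nucleoproteins, and whether these mice make them cannot be read from RNA counts. Mx1 stood at 94.2 and 93.9 CPM in WT, 185 and 128 CPM in clone 1 and 141 and 109 CPM in clone 2 (log2 fold change 0.56 ± 0.23, unadjusted p = 0.046). Mx2, annotated as a polymorphic pseudogene, stood at 24.3 and 30.3 CPM in WT, 42.2 and 33.7 CPM in clone 1 and 34.0 and 27.0 CPM in clone 2 (0.30 ± 0.23). Mx1 separated the genotypes and Mx2 did not.

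Of the helicases and large ATPases, Ddx60, a helicase linked to RIG-I signalling with 2 ISRE core matches in its promoter, stood at 44.99 and 29.2 CPM in WT, 104 and 72.6 CPM in clone 1 and 98.4 and 77.1 CPM in clone 2 (log2 fold change 1.23 ± 0.25, edgeR adjusted p = 0.131). Samd9l, a growth-restraining antiviral factor, stood at 169 and 47.2 CPM in WT, 300.1 and 248 CPM in clone 1 and 324 and 278 CPM in clone 2 (1.40 ± 0.45). Both separated the genotypes, and for Samd9l the WT libraries differed more than 3-fold. Znfx1, a helicase-like sensor of double-stranded RNA, stood at 210.0 and 464 CPM in WT, 540.5 and 357 CPM in clone 1 and 421 and 363 CPM in clone 2, with overlap (0.29 ± 0.34). Helz2, a helicase that serves as a transcriptional coactivator, ran from 83.7 to 230.2 CPM in the WT pair against 127 to 263 CPM in the KO libraries (0.05 ± 0.46).

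Both members of the galectin system had KO libraries between the WT libraries. Lgals3bp, a secreted glycoprotein that binds galectins, stood at 255 and 801 CPM in WT, 598 and 400.0 CPM in clone 1 and 452 and 425 CPM in clone 2 (log2 fold change -0.21 ± 0.42). Lgals9, or galectin-9, a ligand of the checkpoint receptor TIM-3, stood at 69.7 and 142 CPM in WT, 107 and 86.0 CPM in clone 1 and 90.0 and 94.7 CPM in clone 2 (-0.20 ± 0.28). In both, WT mouse 1 was the lowest and WT mouse 2 the highest of the 6 libraries.

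Of the 15 members whose groups overlapped, 14 had WT mouse 2 above WT mouse 1, and in 13 all 4 KO libraries lay above WT mouse 1. Over all members, every KO library lay above WT mouse 1 in 40 (95.2%, against 23.1% of genes) and above WT mouse 2 in 28 (66.7%, against 43.4%). All KO libraries lay below WT mouse 2 in 6 members (14.3%, against 34.9%), which were Isg15, Trim25, Bst2, Lgals3bp, Lgals9 and Ifi27. The 2 WT libraries differed by a median ratio of 1.50 (range 1.003 to 4.04) and the 4 KO libraries, highest over lowest, by 1.33 (1.09 to 2.22). The WT ratio was the larger in 29 members (69.0%), against 56.1% of genes.

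Without WT mouse 2 the median log2 fold change was 0.84 and 41 members were above 0, against 47.8% of all genes. Without WT mouse 1 the median was 0.66 and 26 members passed, 21 higher and 5 lower, where 21.9% of all genes were called higher; the lone WT library was then assumed to vary as the KO libraries do. The 5 lower members were Isg15 (log2 fold change -0.89), Bst2 (-1.01), Lgals3bp (-0.81), Lgals9 (-0.63) and Ifi27 (-0.73). Many genes outside the set were also called lower in that fit, which rests on 1 WT library. Its counts, higher or lower, are therefore not read as a result about the members. Without WT mouse 2 the same 5 stood above 0, at 1.05, 0.82, 0.86, 0.42 and 0.12. Where every gene with a count was tested, Herc6, Ifi44, Rtp4, Trim30a, Trim30d and Xaf1 passed, against 0.479% of genes higher.

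**Figure D3:**
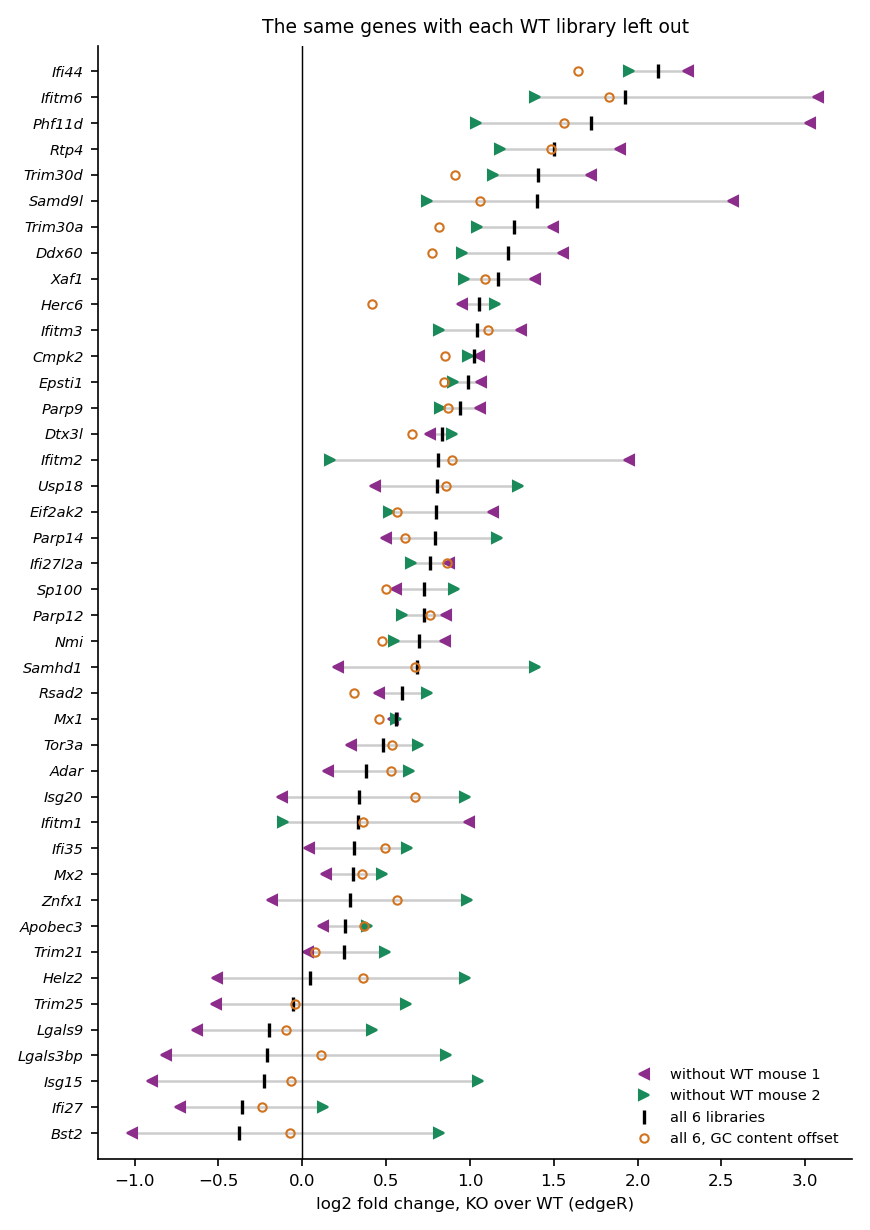
Log2 fold change of KO over WT for each member with all 6 libraries (black ticks), without WT mouse 1 (left-pointing triangles), without WT mouse 2 (right-pointing triangles) and with a GC content offset (open circles). Members at the foot of the plot, such as Isg15 (-0.89 and 1.05 without WT mouse 1 and 2), cross 0 with the choice of WT library, while Ifi44, Rtp4 and Xaf1 lie above 0 throughout.

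The base composition of the transcripts moved with these differences. Across the 42 members, the GC content of the longest transcript had a Pearson r of 0.56 (Spearman rho 0.59) with the log2 ratio of WT mouse 2 to WT mouse 1, and of -0.71 (rho -0.71) with the log2 fold change of KO over WT. Across 14910 genes the same coefficients were 0.47 (0.50) and -0.32 (-0.41). Genes are not independent replicates, and these 2 measures share the WT libraries. For the log2 ratio of mouse 2 to mouse 1 within clone 2, the Pearson r was 0.48 over the members and 0.07 over all genes. Within clone 1 it was 0.07 and 0.04. The 21 members of lower GC content (38.8% to 49.0%) had a median log2 fold change of 1.03, and WT mouse 2 was above WT mouse 1 in 6 of them. In the 21 of higher GC content (49.3% to 57.4%) the median was 0.31, and WT mouse 2 was above WT mouse 1 in 16. An offset for GC content, chosen after seeing the data, was then fitted. With it 37 of 42 members were above 0 (49% of all genes), with a median of 0.59. Rtp4 (1.49, edgeR adjusted p = 0.0468) and Xaf1 (1.09, adjusted p = 0.0379) passed as higher in that fit, against 0.238% of genes called higher. Without the offset their log2 fold changes were 1.50 and 1.17, so these did not grow. With the offset Herc6 stood at 0.42 and Ifi44 at 1.64. The r of GC content with KO over WT was then -0.41 over the members and 0.02 over all genes, and without WT mouse 2 it was -0.35 and -0.01.

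**Figure D4:**
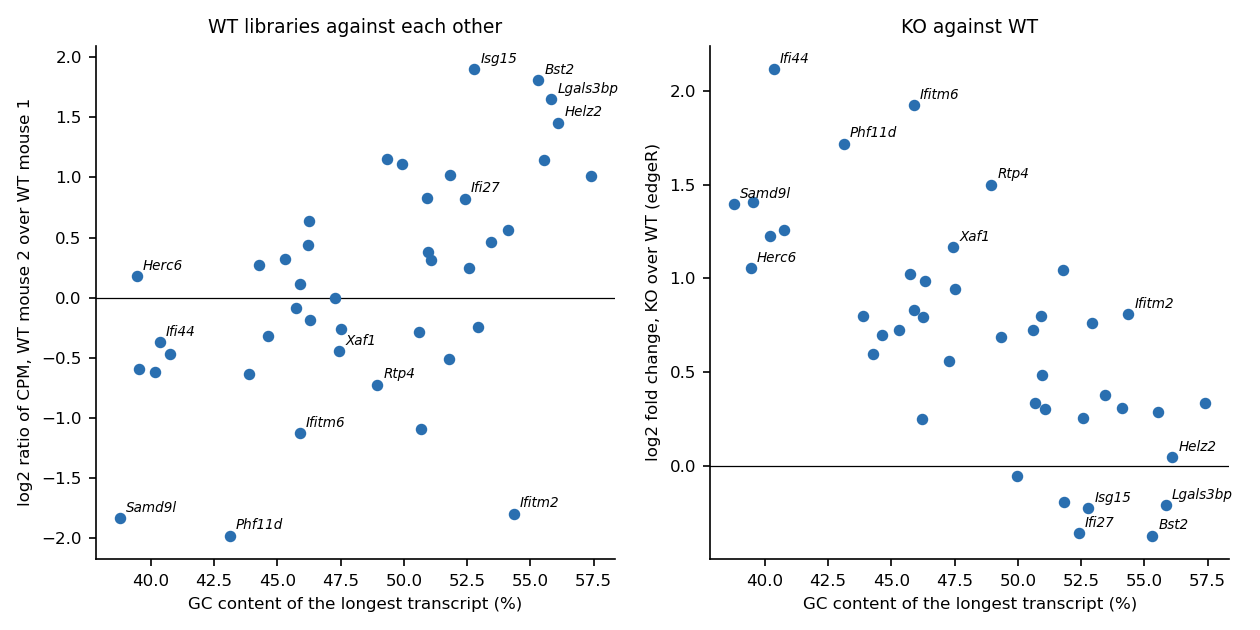
GC content of the longest transcript (percent) against the log2 ratio of WT mouse 2 to WT mouse 1 (left) and the log2 fold change of KO over WT (right) for 42 members, 1 point each. Bst2 and Lgals3bp, both rich in GC, lie high on the left and low on the right, and Ifi44 and Samd9l show the reverse order. Not all members follow this order: Ifitm2, also rich in GC, lies at -1.79 on the left and 0.81 on the right.

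The clones were each compared with the same 2 WT libraries, so the comparisons share their controls. For clone 1, 37 of 42 members were above 0 (51.2% of genes), with a median log2 fold change of 0.72. No member passed in edgeR (0.00643% of genes higher), 23 were higher at an unadjusted p under 0.05 (4.25%), and DESeq2 called 12 (1.37%). Both clone 1 libraries lay above both WT libraries in 28 members (17.8%). For clone 2, 35 were above 0 (48.3%), with a median of 0.66. Again none passed in edgeR (0.00643%), 21 were higher at an unadjusted p under 0.05 (5.12%), and DESeq2 called 13 (2.08%). Both clone 2 libraries lay above both WT libraries in 31 members (27.1%). These counts changed with the library left out, and the ranges are given at the end. Each such fit left 1 library in a group, which was assumed to vary as the others do. The share over all genes was not taken for these fits, so their counts are not read as a result about the members.

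The log2 fold changes of clones 1 and 2 stood side by side at 2.02 ± 0.33 and 2.21 ± 0.33 for Ifi44, 1.49 ± 0.28 and 1.51 ± 0.28 for Rtp4, 1.13 and 1.21 for Xaf1, and 1.01 and 1.09 for Herc6. Only Trim25 (0.09 and -0.22) and Helz2 (0.33 and -0.31) differed in sign between the clones among the 42. Clone 2 was higher than clone 1 in 21 members and lower in 21 (47% of genes higher), with a median log2 difference of -0.01 and a range of -0.75 to 0.38. No member passed in edgeR, where 0 of the 15560 genes did. None had an unadjusted p under 0.05 in either direction (1.32% higher and 1.91% lower), and DESeq2 called 0 (0.347% and 0.405%). The clones did not overlap in 7 members with clone 2 above and 7 with it below (22.1% and 22.5%). The 4 smallest p-values belonged to Parp9 (0.35 ± 0.21, unadjusted p = 0.134), Nmi (0.38 ± 0.23), Ifitm6 (-0.75 ± 0.50) and Apobec3 (0.33 ± 0.22).

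The genes that carry the signal were read from a list of the pathway. Of 21 interferon ligands listed, 13 were in the table and 3 passed the filter on low counts. Ifng, the interferon of T and NK cells, stood at 0.64 and 1.87 CPM in WT, 7.19 and 5.40 CPM in clone 1 and 8.01 and 3.78 CPM in clone 2 (log2 fold change 2.33 ± 0.54, edgeR adjusted p = 0.18). All KO libraries were above both WT libraries, and the T and NK cell markers moved the same way. Ifnb1, the interferon-beta gene, stood at 3.74 and 5.60 CPM in WT, 4.81 and 4.14 CPM in clone 1 and 0.90 and 0.41 CPM in clone 2 (KO over WT, -0.88 ± 0.86). Both clone 2 libraries were the lowest, with a log2 difference from clone 1 of -2.78 ± 0.48 (edgeR adjusted p = 0.352).

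The 6 receptor chains all had a positive fold change (50.2% of all genes). In 4 of them all KO libraries lay above both WT libraries (13.1%). Il10rb, a chain of the interferon-lambda receptor, was at 0.60 ± 0.19, and Ifnar2, the signalling chain for type I interferon, at 0.53 ± 0.19. Of the 3 receptor kinases, Jak2 was at 0.93 ± 0.18 (edgeR adjusted p = 0.119) and Tyk2 at -0.19 ± 0.25. Of the 6 interferon regulatory factors in the list, 5 had a positive fold change, and the median log2 fold change of the 6 was 0.40. Higher at an unadjusted p under 0.05 were 3 (6.25% of all genes). In 4 (Irf1, Irf5, Irf7 and Irf9) all KO libraries lay above both WT libraries (13.1%). Irf3 (-0.35 ± 0.21) and Irf8 (0.18 ± 0.19) overlapped. Irf7, which amplifies type I interferon production, stood at 176 and 203 CPM in WT, 656 and 514 CPM in clone 1 and 514 and 490.1 CPM in clone 2. Its KO libraries were far above both WT libraries (1.50 ± 0.21, edgeR adjusted p = 0.0561). Among the 5 genes that restrain the signal, 0 had an unadjusted p under 0.05, against 6.25% of genes higher and 7.38% lower. Pias1 (0.56 ± 0.28) and Ptpn2 (0.42 ± 0.23) had the smallest p of the 5. None of the pathway genes named here passed the adjusted test.

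Members with and without an ISRE core match were set side by side. Of 33 measured members with a promoter, 12 had a match in their promoter, 7 of which separated the genotypes, with a median log2 fold change of 0.70. Of the 21 with a promoter and no match, 13 separated the genotypes, with a median of 0.73. The members with a match ranged from Bst2 (-0.37) to Trim30d (1.41), and those without from Lgals3bp (-0.21) to Ifi44 (2.12).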

How the data were processed

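Total RNA from sorted macrophages went into ribosome-depleted TruSeq libraries, per the labels' protocols. The deposited values are estimated counts, whole numbers per symbol, not scaled to depth. Salmon 0.7.2 and mm10 are named, without role or order, per the submitters' processing notes. With transcript set and strand use not given in the sources used here, near-copies and overlapping genes are uncertain one by one.

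Libraries were grouped by the labels. Library pairs of a group were checked and were not copies (chi-square per degree of freedom 80.5 to 860.1). Genes were tested over the whole table with edgeR 4.0.16 (R 4.3.3), quasi-likelihood F test, TMM factors and filterByExpr (minimum count 10, minimum total 15), with Benjamini-Hochberg adjustment over 15560 genes and a threshold of 0.05. KO against WT used 2 genotype levels; clone contrasts used a fit of 3 groups. The SE is the absolute log2 fold change over the root of F. The fits were tested on simulated counts.

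The members, role groups and lists were chosen with earlier results of these data known. Values in every library were given for up to 3 members per role group with the smallest p, 9 members taken whatever their result, every member with a negative fold change and the 4 with the smallest p between clones; Helz2 was added after its values were seen. A gene that the pathway list allows is not reported here. Positions came from GENCODE M21 (GRCm38), promoters from RefSeq (GRCm38.p6). Transcript GC content was known for 95.8% of genes tested and all 42 members. Alternatives were RLE factors, DESeq2 1.42.0, limma-voom (limma 3.58.1), other filters, a replicate block, removal of Rn45s, leaving out each library and, added after seeing the data, a GC content offset (loess span 0.3).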

Additional observations from a re-analysis of the deposited data

Results flagged for a closer look

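Among the 4 KO libraries, 2 of 42 members had a library far from the other 3, and in both it was clone 1 mouse 1. Trim25 stood at 161.8 CPM there, against 104.6, 107.0 and 108.2 CPM, so that the gap to the nearest library was 0.938 of the whole range. Helz2 stood at 262.9 CPM, against 126.9, 133.5 and 140.7 CPM, with a gap of 0.898 of the range. Chance flags about 1 in 20 groups; with 42 members tested.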

How the results depend on the processing

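Against 0 members called in KO against WT with all 6 libraries, DESeq2 called 18, a test without a filter beyond 1 count 6, the replicate block 1 (Ifi44, adjusted p = 0.0469) and the GC content offset 2, with a median of 0.59; leaving out 1 library gave 0 to 26. For clone 1 the counts were 12 with DESeq2, 3 without the filter and 0 to 25 leaving out 1 library, and for clone 2 they were 13, 5 and 0 to 25. Leaving out 1 library, members higher at an unadjusted p numbered 14 to 37 for clone 1, 10 to 34 for clone 2 and 0 to 3 between clones; the median was 0.58 to 0.88 for clone 1 and -0.15 to 0.13 between clones; and 0 to 6 members had all KO libraries below WT. The deviations of mice with the same number had r = -0.28 between WT and clone 1, 0.05 between WT and clone 2 and 0.22 between the clones; since not every r was positive and over 0.1, the replicate block rests on a shared number only.

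The sign of KO against WT was kept by 32 members in all 15 alternatives. It turned in 10, between the values without WT mouse 1 and without WT mouse 2: Isg15 (-0.89 and 1.05), Trim25 (-0.52 and 0.62), Isg20 (-0.12 and 0.97), Bst2 (-1.01 and 0.82), Ifitm1 (0.99 and -0.12), Helz2 (-0.51 and 0.97), Znfx1 (-0.18 and 0.98), Lgals3bp (-0.81 and 0.86), Lgals9 (-0.63 and 0.42) and Ifi27 (-0.73 and 0.12). It also turned with limma-voom for Isg15 (0.14) and Trim25 (0.034), with a filter of 5 CPM for Helz2 (-0.0086), without clone 1 mouse 1 for Helz2 (-0.27), without clone 1 mouse 2 for Trim25 (0.0036) and with the GC content offset for Lgals3bp (0.11). The cause was not tested.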
